A study of Mus musculus with 40 samples.

Results

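Oxidative phosphorylation is carried out by 5 multi-subunit complexes of the inner mitochondrial membrane, and this account covers their nuclear-encoded subunits in the mouse nucleus accumbens. Genes were taken by name, as those starting Nduf with a letter from a, b, c, s or v and a digit, Sdha to Sdhd, those starting Uqcr, Cox4 to Cox8 with a further letter, and Atp5 with a letter from a to o. Names ending in -ps would have been dropped as pseudogenes, and 0 did. The rule found 82 of the 23322 gene names in the table: 37 for complex I, 4 for complex II, 8 for complex III, 18 for complex IV and 15 for complex V. The rule used names and no measured value. It misses some nuclear-encoded subunits with other names, so the counts by complex are not complete. A list of 9 electron carriers and missed subunits, 8 of them tested, is set beside the members further below.

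Complex I oxidizes NADH and complex II oxidizes succinate, and both pass electrons through ubiquinone to complex III, then through cytochrome c to complex IV, which reduces oxygen. Complexes I, III and IV pump protons, and complex V, the ATP synthase, uses the resulting gradient to make ATP. Neurons depend heavily on this pathway to restore ion gradients after synaptic activity. All complexes except complex II combine subunits encoded in the nucleus with subunits encoded in mitochondrial DNA. Of the 13 mitochondrially encoded subunits 0 were found by name in the deposited data, so they could not be analysed here.

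RNA came from left and right punches of the nucleus accumbens, a ventral striatal region that receives dopamine input, of 40 C57BL/6J mice, 1 library per mouse. There were 8 groups of 5 mice. In 4 of them gonads were intact (male saline, male cocaine, female saline, female cocaine), and in the other 4 females had been ovariectomized and had received placebo or estradiol, each with saline or with cocaine. All mice were handled for 3 days, and the daily cocaine dose was 20 mg/kg from day 2 to day 6 and 10 mg/kg on day 1 and day 7, with the tissue taken after a withdrawal of unstated length. The study's stated subject is the stronger cocaine response of females. Ages and the form and dose of the estradiol were not given in the sources used here. The ovariectomized mice carry a separate range of animal numbers from the intact mice, so in comparisons between them the surgery cannot be told apart from the cohort.

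Levels are treated as TPM, transcripts per 1000000 after adjustment for length, because every library sums to 1000000. That sum does not show whether or how the levels were adjusted for length, and the libraries came from a targeted AmpliSeq kit. Differences in level between genes, such as those between long and short subunits, carry this limit. Read totals cannot be had from TPM, and the labels give 9.4 and 4.7, in units of 1000000 reads, for all samples together, without saying what the second number is. Libraries held 15276 to 17852 genes above 0. Markers of striatal projection neurons were present in every library, with a summed level of 2412 to 7819.6 TPM. The library labelled male cocaine 69 went against its label: Xist, expressed from the inactive X chromosome, stood at 237 TPM against 0.138 to 8.02 in the other 9 male libraries and 80.6 to 308 in the 10 intact females, and Y-linked Ddx3y at 0.318 against 13.5 to 53.4 in those males. Its title and the list of animals in its description give cocaine, but its own code ends in MS, as in the male saline group, where the other 4 of its group end in MC, so its treatment is in doubt as well as its sex. Leaving it out changed no call of a subunit. In 4 libraries the median correlation with the other libraries was under 0.93: mouse 67 of the male cocaine group, mouse 137 of the placebo saline group, and mice 126 and 134 of the estradiol cocaine group (the last 3 ovariectomized). Leading results are given with and without these 4.

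Of the 82 subunits, 73 had a mean of at least 100 TPM over the 40 libraries, and 81 passed the filter of at least 1 TPM in at least 5 libraries. Only Cox8c, a testis isoform, did not, and it was listed at 0 in all libraries. Together the subunits took 3.98% to 13.1% of a library's TPM, with a median of 5.01%. The subunits below 100 TPM were the tissue-restricted isoforms of complex IV, the complex I paralog Ndufa4l2, and Ndufa11 at 66.3 TPM.

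Within complex I, the 7 core subunits, which carry the flavin and iron-sulfur redox centres, had a median of the subunits' mean levels of 273 TPM, and the 29 accessory subunits one of 488 TPM. Ndufa4 was highest at 2032 ± 905 TPM (SD, n = 40). Ndufa4 carries a complex I name but is now placed with complex IV. Moving it there cannot change the calls or the median of all subunits. Only the medians by complex could change, and their range moved by less than the spread between mice (pooled SD 0.273). That spread is wide for the move of a single gene, so little can be read from this. Its paralog Ndufa4l2, which hypoxia induces in other tissues, was lowest at 4.11 ± 2.19 TPM (SD, n = 40). Among the subunits of the redox modules, Ndufv1, which binds the flavin, averaged 218 TPM, Ndufv2 273, Ndufs3 279, Ndufs7 337 and Ndufs8 358 TPM. The 10 Ndufb subunits of the membrane arm ran from 321 TPM for Ndufb5 to 816 for Ndufb4. Ndufs1 lies at chr1:63143596-63176833 (mm10) and encodes the largest core subunit, with iron-sulfur clusters in the NADH-oxidizing module, and stood at 144 ± 40.2 TPM (SD, n = 40).

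Complex II, succinate dehydrogenase, is also an enzyme of the citrate cycle and has 4 subunits, all nuclear. Sdhb, the iron-sulfur subunit, averaged 358 ± 119 TPM (SD, n = 40), and Sdha, the flavoprotein that oxidizes succinate, 349 ± 100.3 TPM (SD, n = 40). The membrane anchors Sdhc and Sdhd averaged 256 ± 34.3 TPM (SD, n = 40) and 222 ± 29.4 TPM (SD, n = 40). These 4 levels span a narrow range next to the other complexes. Sdha lies at chr13:74322254-74350280, Sdhb at chr4:140961203-140979193, Sdhc at chr1:171127165-171150603 and Sdhd at chr9:50596357-50603812 (mm10).

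In complex III the 5 small subunits were higher than the 3 large ones, with medians of 1009.9 and 296 TPM. Uqcrh, the hinge protein near cytochrome c1, was highest at 1336 ± 479 TPM (SD, n = 40), and Uqcrfs1, the Rieske iron-sulfur protein, lowest at 234 ± 31.4 TPM (SD, n = 40). In complex IV the 11 genes classed as widespread subunits had a median of 1082 TPM. They include Cox7a2l, at 574 TPM, a paralog that was left out with others in an alternative setting. Cox6c, a small transmembrane subunit, was the highest of all 82 genes at 3049 ± 1850.2 TPM (SD, n = 40), followed by Cox4i1, the isoform of subunit 4 found in most tissues, at 2735 ± 1457 TPM (SD, n = 40). The 6 restricted isoforms that passed the filter had a median of 10.5 TPM. Among them the muscle isoforms Cox6a2, Cox7a1 and Cox8b averaged 17.8, 13.7 and 1.53 TPM, the testis isoforms Cox6b2 and Cox7b2 10.1 and 2.21 TPM, and Cox4i2, the oxygen-responsive isoform of subunit 4 best known from lung, 10.9 TPM. Their widespread counterparts were far higher, with Cox6a1 at 1034, Cox7a2 at 1082, Cox8a at 1489, Cox6b1 at 1421 and Cox7b at 474 TPM.

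**Figure D1:**
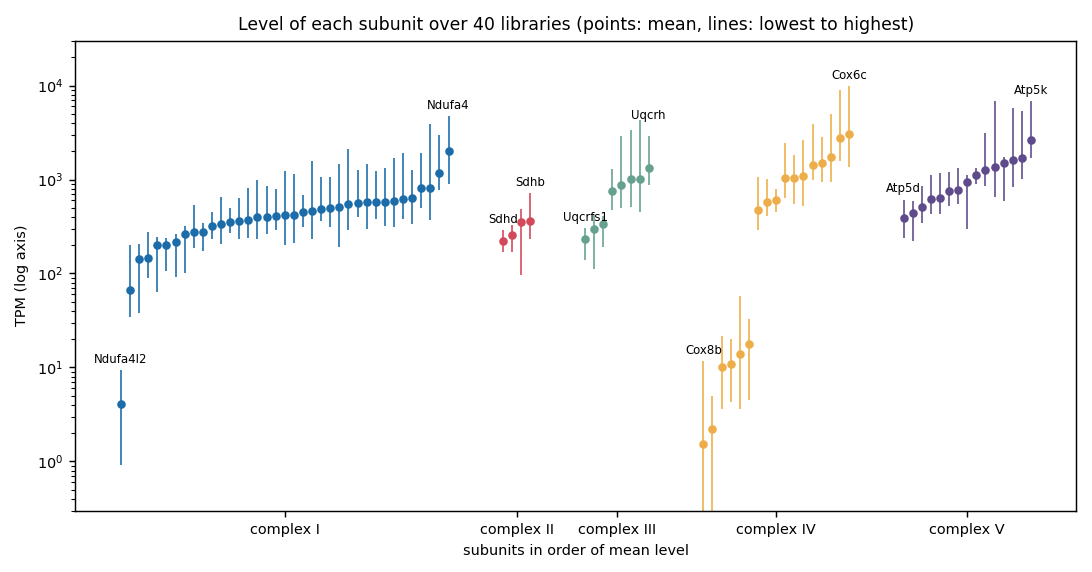
Level of each subunit in TPM on a log axis, grouped by complex and ordered by mean. Points are means over 40 libraries and lines run from the lowest to the highest library (lines reaching the bottom of the plot include 0, and Cox8c, at 0 throughout, is left out). Most subunits lie between 100 and 3049 TPM, and the restricted isoforms of complex IV lie apart below.

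Complex V splits into the F1 head, which makes ATP, the membrane ring of c subunits, the peripheral stalk and further membrane subunits. Atp5k, the membrane subunit e, was highest at 2632 ± 976 TPM (SD, n = 40), and Atp5d, the delta subunit of the central stalk, lowest at 394 ± 82.9 TPM (SD, n = 40). In the F1 head the catalytic beta subunit Atp5b averaged 1505 ± 182 TPM (SD, n = 40), the alpha subunit Atp5a1 941 ± 164 TPM (SD, n = 40) and the gamma shaft Atp5c1 636 TPM. The peripheral stalk subunits Atp5f1, Atp5h, Atp5j and Atp5o averaged 437, 1261, 762 and 765 TPM, and the membrane subunits Atp5j2 and Atp5l 1599.6 and 1683 TPM. The c subunit comes from 3 genes on different chromosomes, Atp5g1 on chr11, Atp5g2 on chr15 and Atp5g3 on chr2. Their levels were 506 ± 113 TPM (SD, n = 40), 616 ± 149 TPM (SD, n = 40) and 1125 ± 120.4 TPM (SD, n = 40). The last 75 codons, from the GENCODE M21 transcripts (mm10), are shown because they end in the same protein from 3 different RNAs, and capitals mark the 57 of 225 positions at which the 3 are not all alike.
Atp5g1: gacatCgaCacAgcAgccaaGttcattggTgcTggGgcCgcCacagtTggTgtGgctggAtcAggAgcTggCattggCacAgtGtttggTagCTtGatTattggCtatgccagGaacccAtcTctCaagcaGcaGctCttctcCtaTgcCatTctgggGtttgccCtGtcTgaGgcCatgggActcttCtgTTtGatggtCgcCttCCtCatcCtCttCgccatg
Atp5g2: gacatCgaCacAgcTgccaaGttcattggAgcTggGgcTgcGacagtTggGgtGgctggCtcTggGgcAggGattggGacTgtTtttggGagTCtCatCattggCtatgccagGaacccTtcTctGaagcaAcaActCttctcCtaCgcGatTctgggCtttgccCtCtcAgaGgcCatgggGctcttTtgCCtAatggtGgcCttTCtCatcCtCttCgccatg
Atp5g3: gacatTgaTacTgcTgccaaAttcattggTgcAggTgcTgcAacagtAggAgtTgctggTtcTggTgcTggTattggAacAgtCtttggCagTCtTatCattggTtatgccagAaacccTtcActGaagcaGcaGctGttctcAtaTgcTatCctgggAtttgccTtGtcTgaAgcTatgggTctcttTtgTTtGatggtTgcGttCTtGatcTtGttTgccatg
All 75 encoded residues were identical between the 3 genes. Atp5g1 and Atp5g2 shared 191 of the 225 bases (84.9%), Atp5g1 and Atp5g3 180 (80%) and Atp5g2 and Atp5g3 177 (78.7%). The pairs differ at 34 to 48 of these bases, and the capitals run through the whole stretch. Other parts of the transcripts are not compared here. How the authors assigned any reads shared between the genes is not given in the sources used here.

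Libraries differed in the share of TPM taken by the subunits, and complexes I, III, IV and V moved together from library to library, while the share of complex II varied far less. In the 4 libraries of low correlation the subunits' share of TPM was 10.7% in mouse 67, 9.28% in 137, 13.1% in 126 and 10.4% in 134, against 3.98% to 7.91% in the other 36. Complex I took 3.05% to 3.96% in the 4 and 1.22% to 2.46% in the 36, and these ranges did not overlap. Complex II took 0.108% to 0.14% in the 4 and 0.0936% to 0.133% in the 36, which overlap. It was highest of all 40 libraries in 134 and 137, while 126 was the lowest of the 4.

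Other gene groups moved with this share. Cytosolic ribosomal protein genes took 19.6% to 31.6% of TPM in the 4 libraries and 7.64% to 17.9% in the 36. Astrocyte markers, 6 genes, summed to 219.8 to 395 TPM in the 4 and 704 to 1609 in the 36, again without overlap. Oligodendrocyte markers summed to 1780.0 to 5858 against 5202 to 18821 TPM, and vessel wall markers to 40.2 to 85.2 against 67.4 to 347 TPM. Other markers had higher medians in the 4, at 313 against 133 TPM for blood, 167 against 109 for parvalbumin interneurons and 16.1 against 7.34 for pituitary, with ranges that overlap. The part of these cell types and of RNA quality in the differences between libraries was not tested. In bulk tissue, fewer cells of a type and less RNA per cell cannot be told apart.

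**Figure D2:**
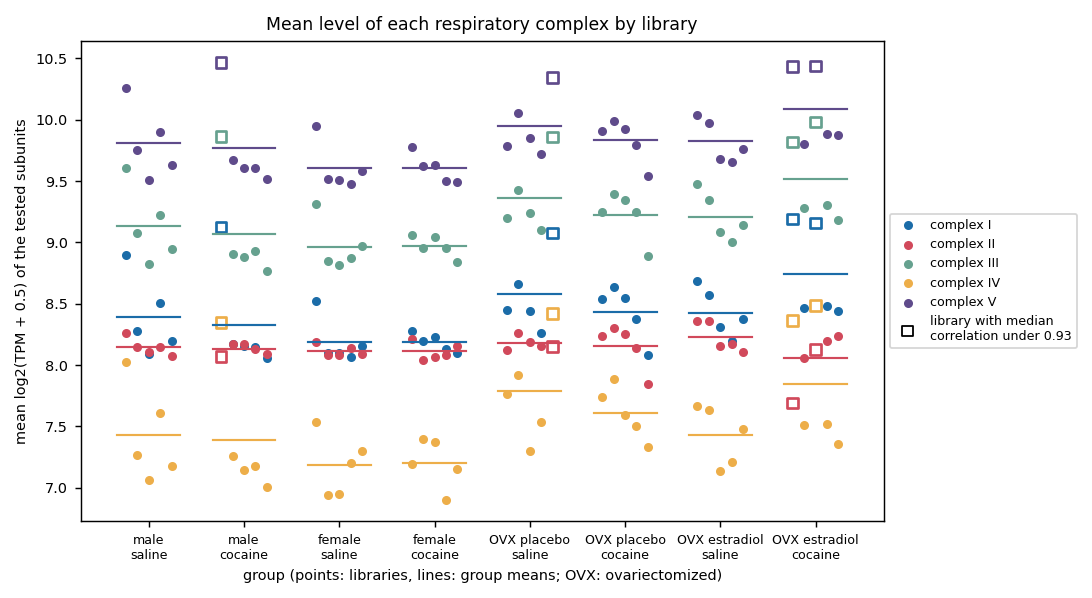
Mean log2(TPM + 0.5) of the tested subunits of each complex in every library, by group. Points are libraries in order of animal number, lines are group means over 5 mice, and open squares are the 4 libraries of low correlation. Complexes I, III, IV and V are raised together in those 4 libraries, while the mean log2 level of complex II is not.

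Across the 40 libraries the mean log2 level of complex I had a Pearson r of 0.97 with the log2 ribosomal protein share (Spearman rho 0.93). For complexes III, IV and V r was 0.95, 0.92 and 0.96, and for complex II it was -0.09 (rho 0.35). Without the 4 libraries of low correlation the 5 values were 0.94, 0.61, 0.93, 0.84 and 0.94 for complexes I to V, so that the mean log2 level of complex II also followed the share there. Within the 20 intact mice complex I had an r of 0.99 and complex II of 0.27, and within the 20 ovariectomized mice 0.94 and -0.34. Both measures are shares of the same library total, so these values are a description and carry no test.

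The slope of each subunit's log2(TPM + 0.5) on the log2 ribosomal protein share was above 0 for 70 of 81 subunits, with a median of 0.68 per doubling of the share. Over all 15196 tested genes the median slope was -0.79, and 13.5% were above 0. With the 4 libraries left out, 76 of 81 slopes were above 0. Of the 11 below 0, 10 had coding lengths of 822 to 2181 bases, and the other was the low-level paralog Ndufa4l2. Sdha had the lowest slope, -1.05, then Ndufs1 at -0.94, Atp5a1, the alpha subunit of the F1 head, at -0.53, and Ndufa9, an accessory subunit at the junction of the 2 arms of complex I, at -0.49. With the 4 libraries left out these slopes were -0.68, -0.55, -0.0941 and -0.0747, so those of Atp5a1 and Ndufa9 rest largely on the 4. The highest slopes were those of Ndufb4, an accessory subunit of the membrane arm, at 1.41, Atp5e, the epsilon subunit, at 1.39, and Uqcrq, a small subunit of complex III, at 1.34.

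Slope and coding length ran against each other within the pathway. Over the 81 subunits the slope had a Pearson r of -0.75 with log2 coding length (rho -0.65), and over the 13519 tested genes with a coding length r was -0.64. Genes are not independent replicates, so no p is given. The 24 subunits of at most 300 coding bases had a median slope of 0.91, the 37 of over 300 to 600 bases 0.71, the 11 of over 600 to 1200 bases 0.50 and the 9 longer ones -0.26. All tested genes in those classes had medians of 0.42, -0.03, -0.54 and -0.98, each below that of the subunits. Among the 73 subunits of at least 100 TPM, with slopes taken without the 4 libraries, r was -0.80. Why slope and length ran together was not tested.

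A split of this kind appeared inside complexes I and III, and less plainly in complexes II and V. The core subunits of complex I had a median slope of 0.04 and a median coding length of 789 bases, and its accessory subunits 0.82 and 393 bases. With the 4 libraries left out the median slopes were 0.22 and 0.82. The large subunits of complex III had -0.08 and the small ones 1.10, and without the 4 libraries, where the sign of the first turned, 0.23 and 1.00. In complex II Sdha had -1.05 at 1992 coding bases and Sdhb 0.74 at 846, while Sdhc and Sdhd had 0.06 and 0.17 at 507 and 477. The shorter Sdhc and Sdhd thus lay below the longer Sdhb. In complex V the median slopes were 1.11 for the membrane subunits and 0.49 for the c subunit genes, at median lengths of 264 and 423 bases. They were 0.55 for the peripheral stalk and 0.44 for the F1 head, at 561 and 894 bases. Without the 4 libraries the slopes of Sdha, Sdhb, Sdhc and Sdhd were -0.68, 0.69, 0.38 and 0.36. The mean of complex II thus holds Sdha and Sdhb, which moved in opposite directions with and without the 4.

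**Figure D3:**
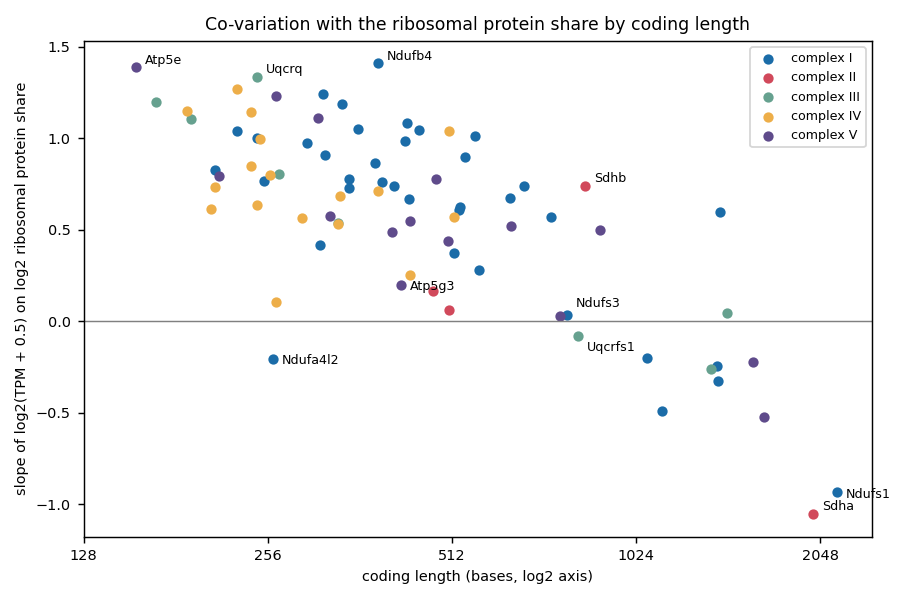
Slope of each subunit's log2(TPM + 0.5) on the log2 ribosomal protein share over 40 libraries against its coding length in bases on a log2 axis, coloured by complex. Each point is 1 of 81 subunits, and the slopes fall from above 1 for several short subunits to about -1 for Sdha and Ndufs1.

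Spread between mice of a group was smallest, on the log2 scale, for Atp5g3 (SD 0.153), Cox5a, a matrix-side subunit of complex IV (0.167), Ndufs3, a core subunit of complex I (0.17), Sdhd (0.193) and Uqcrfs1 (0.202) within their complexes. It was widest for Cox8b (1.29), Ndufb4 (0.68), Atp5e (0.679), Uqcrq (0.656) and Sdha (0.542). Cox8b was above 0 in only 24 of the 40 libraries, so its spread includes that between 0 and low levels.

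Differences between the 8 groups were tested with limma on log2(TPM + 0.5), with p adjusted over all 15196 tested genes by the Benjamini-Hochberg method and a threshold of 0.05. In a test of any difference among the groups, 0 of 81 subunits passed, beside 34 of all genes (0.224%). At an unadjusted p under 0.05 there were 20 of 81 subunits, or 24.7%, close to the 23.9% of all genes. The smallest adjusted p of a subunit was 0.133, for Ndufc2, an accessory subunit of the membrane arm of complex I. Its values were 529, 335, 345, 371 and 368 TPM in intact saline females and 449, 386, 447, 409.9 and 334 in intact cocaine females. They were 507, 644, 562, 511 and 1367 TPM with ovariectomy, placebo and saline, and 684, 688, 469, 460.1 and 498 with ovariectomy, estradiol and saline. Among these groups the ovariectomized mice lay mostly above the intact ones but overlapped them, and 137 was the highest of the placebo saline mice. The mean log2 levels of the groups not listed were 8.77 in male saline and 8.81 in male cocaine mice. They were 9.19 in ovariectomized placebo cocaine and 9.74 in ovariectomized estradiol cocaine mice, beside 8.59 in intact saline females. The estradiol cocaine group, the highest of the 8, holds 126 and 134. Once the 4 libraries of low correlation were left out, Ndufc2 was the only subunit that passed (adjusted p = 0.0355), beside 2.99% of all genes. With limma's array weights, which give libraries that fit poorly less weight, 57 subunits passed beside 45.8% of all genes, and without male cocaine 67 alone 29 passed beside 25.7% of all genes.

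The first comparison asks how cocaine changed the subunits within each condition, and in intact mice the medians with all libraries were near 0. In males 0 of 81 subunits passed (limma, 0% of all genes passed, 0 subunits at an unadjusted p under 0.05), with a median log2 difference of -0.05 beside -0.03 over all genes. The medians were -0.11 for complex I, 0.00 for complex II, -0.08 for complex III, -0.04 for complex IV and -0.05 for complex V. These values rest on male cocaine 67. With the 4 libraries left out, 67 being the 1 among males, the median subunit stood at -0.27 and the median gene at 0.21, and 11 of 81 subunits were above 0. Then 28 subunits (34.6%, beside 15.5% of all genes) had an unadjusted p under 0.05, with 0 passing. With array weights 23 did, also with 0 passing. The share of all genes is not given for that setting, so the 23 do not set the subunits apart. Without the library labelled male cocaine 69, whose treatment is in doubt, the median of complex IV was 0.0265 and 0 passed. Ndufs5, a small accessory subunit of complex I, had the smallest p of those above 0, 0.60 (SE 0.31), and Ndufa4l2 of those below 0, -0.72 (SE 0.41) (adjusted p = 1 for both). In intact females 0 passed (0% of all genes, 2 subunits at an unadjusted p under 0.05), with medians of 0.00 and 0.03 and complex medians of 0.00 for complex I, 0.00 for complex II, 0.03 for complex III, 0.00 for complex IV and -0.01 for complex V. The 2 were low-level isoforms of complex IV. Cox7b2 was at 3.25, 1.32, 1.58, 0 and 0 TPM with cocaine and 3.94, 2.04, 2.26, 2.57 and 2.06 with saline, a log2 difference of -1.22 (SE 0.45), and Cox6b2 differed by 0.67 (SE 0.31) the other way (adjusted p = 1 for both). The Cox7b2 groups overlapped, and 2 cocaine mice were listed at 0.

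After ovariectomy with placebo, cocaine mice again gave 0 of 81 (0% of all genes, 0 at an unadjusted p under 0.05). The median subunit differed by -0.17 and the median gene by 0.15, and 11 of 81 subunits were above 0. Complex medians were -0.18 for complex I, -0.08 for complex II, -0.18 for complex III, -0.20 for complex IV and -0.14 for complex V. Cox4i2 had the smallest p, with a log2 difference of -0.42 (SE 0.30) (adjusted p = 0.996). Without library 137 of the placebo saline group, which is 1 of the 4, the median subunit differed by -0.02 and the median gene by -0.02.

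After ovariectomy with estradiol the subunits and all genes lay further apart than in the other 3 cocaine comparisons. The median subunit was 0.41 higher on the log2 scale in cocaine than in saline mice, while the median gene was at -0.56. None of the 81 subunits passed (limma, 0% of all genes), 63 were above 0, and 28 had an unadjusted p under 0.05, 23 above and 5 below 0, beside 41.7% of all genes. Complex medians were 0.43 for complex I, -0.13 for complex II, 0.27 for complex III, 0.45 for complex IV and 0.29 for complex V, so complex II lay apart from the other 4. The smallest adjusted p of a subunit was 0.0946. By role, the 5 small subunits of complex III stood at 0.77 and the 3 large ones at -0.23. The 29 accessory subunits of complex I stood at 0.44 and the 7 core subunits at -0.14. In complex V the 3 membrane subunits stood at 0.64, the peripheral stalk at 0.27, the c subunit genes at 0.25 and the F1 head at 0.19. All 11 widespread subunits of complex IV lay above 0, with a median of 0.45. At an unadjusted p under 0.05 were 14 of 37 subunits of complex I, 2 of 4 of complex II, 4 of 8 of complex III, 4 of 17 of complex IV and 4 of 15 of complex V.

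Sdha was at 97.3, 298, 96.2, 383 and 340.4 TPM in the estradiol cocaine mice and 369, 369, 364, 451 and 368 in the estradiol saline mice. The pair at 97.3 and 96.2 are libraries 126 and 134, and the groups overlapped through 1 cocaine mouse at 383. The log2 difference was -0.90 (SE 0.33). Sdhb went the other way in the same libraries, at 643, 352, 710.5, 359.8 and 361 TPM with cocaine and 373, 371, 329.7, 270.3 and 324 with saline, a log2 difference of 0.48 (SE 0.23). Ndufs1 was at 38.3, 127, 57.6, 181 and 147 TPM with cocaine and 156, 164, 165, 208 and 161 with saline, a difference of -0.84 (SE 0.31). Like Sdha it was lowest in 126 and 134, and the groups overlapped. Uqcrq was at 4302, 1241, 2649.6, 915 and 753 TPM with cocaine and 1074, 772, 777, 507 and 799 with saline, a difference of 1.04 (SE 0.39). Here 126 and 134 were the highest and the groups overlapped. Cox4i2 was at 9.58, 17.1, 17.5, 13.0 and 17.7 TPM with cocaine and 5.36, 10.5, 7.5, 6.48 and 10.2 with saline, a difference of 0.87 (SE 0.30). In this gene 126 was the lowest cocaine mouse, the groups overlapped only through it, and without the 4 libraries the difference was 0.98 (not past the threshold).

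**Figure D4:**
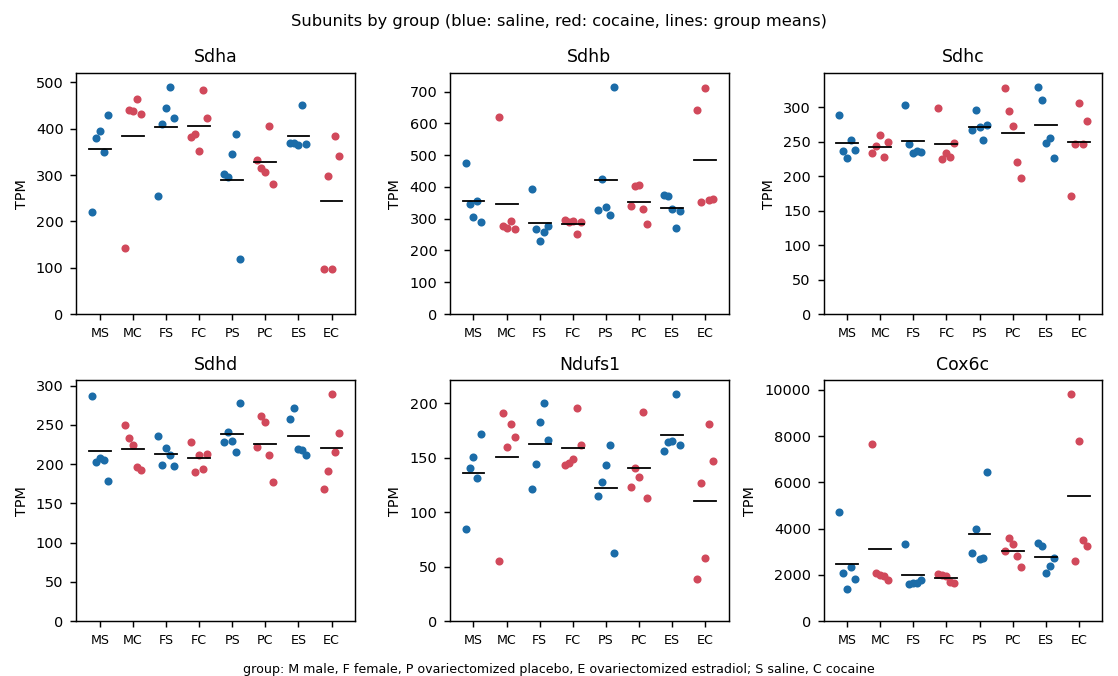
TPM of the 4 subunits of complex II, of Ndufs1 and of Cox6c in every mouse by group, on axes that start at 0. Points are mice (saline and cocaine in different colours) and lines are group means. Sdha and Ndufs1 are lowest, and Sdhb and Cox6c highest, in the same few libraries, among them 2 of the estradiol cocaine group.

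Without the 4 libraries of low correlation, which include 2 of the 5 estradiol cocaine mice, the median subunit in that comparison was at 0.03 and the median gene at -0.04, with 0 passing and 2 subunits at an unadjusted p under 0.05. The log2 differences were then -0.18 (SE 0.18) for Sdha, 0.11 (SE 0.15) for Sdhb, -0.18 (SE 0.18) for Ndufs1 and 0.31 (SE 0.26) for Uqcrq. By role, the small and large subunits of complex III stood at 0.08 and -0.03, the accessory and core subunits of complex I at 0.04 and 0.00, and 7 of the 11 widespread subunits of complex IV were above 0. The complex medians were then 0.04, -0.10, 0.02, 0.05 and 0.01 for complexes I to V. With the ribosomal protein share as a covariate and all libraries kept, the median subunit was at -0.04 and the median gene at -0.09. Leaving out 1 of the other 3 estradiol cocaine mice had the opposite effect. Without 128, 136 or 140, 9, 23 and 22 subunits passed, beside 23.8%, 40.2% and 38.8% of all genes. These went both ways, with 5, 18 and 18 higher and 4, 5 and 4 lower.

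Averaged over the 4 conditions, cocaine and saline mice differed by a median of 0.04 for the subunits and -0.10 for all genes. None passed (limma, 0% of all genes, 1 subunit at an unadjusted p under 0.05). That subunit was Cox7b2, at -0.45 (SE 0.22) (adjusted p = 0.899). The difference in cocaine response between intact females and males had a median of 0.06 for the subunits and 0.05 for all genes, and 0 subunits passed (0% of all genes, 1 at an unadjusted p under 0.05). It was Cox6b2, at 1.00 (SE 0.43). The male cocaine group of this contrast holds the library labelled 69, whose sex and treatment are in doubt. With the 4 libraries left out the medians were 0.22 and -0.18, with 0 passing and 10 subunits at an unadjusted p under 0.05 (12.3%, beside 2.59% of all genes).

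The difference in cocaine response between estradiol and placebo, a test of the interaction itself, had a median of 0.58 for the subunits and -0.71 for all genes. Again 0 passed (0% of all genes, 22 at an unadjusted p under 0.05, beside 31.3% of all genes). Complex medians were 0.61 for complex I, -0.05 for complex II, 0.46 for complex III, 0.70 for complex IV and 0.41 for complex V. The members of smallest p were Cox4i2, at 1.29 (SE 0.43), and Sdha, at -1.17 (SE 0.46) (adjusted p = 0.156 for both). Leaving out the 4 libraries put the median subunit at 0.06 and the median gene at -0.02. This contrast shares its 4 groups with the cocaine contrasts after ovariectomy and with the estradiol contrasts that follow, so none of these is separate evidence for another.

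**Figure D5:**
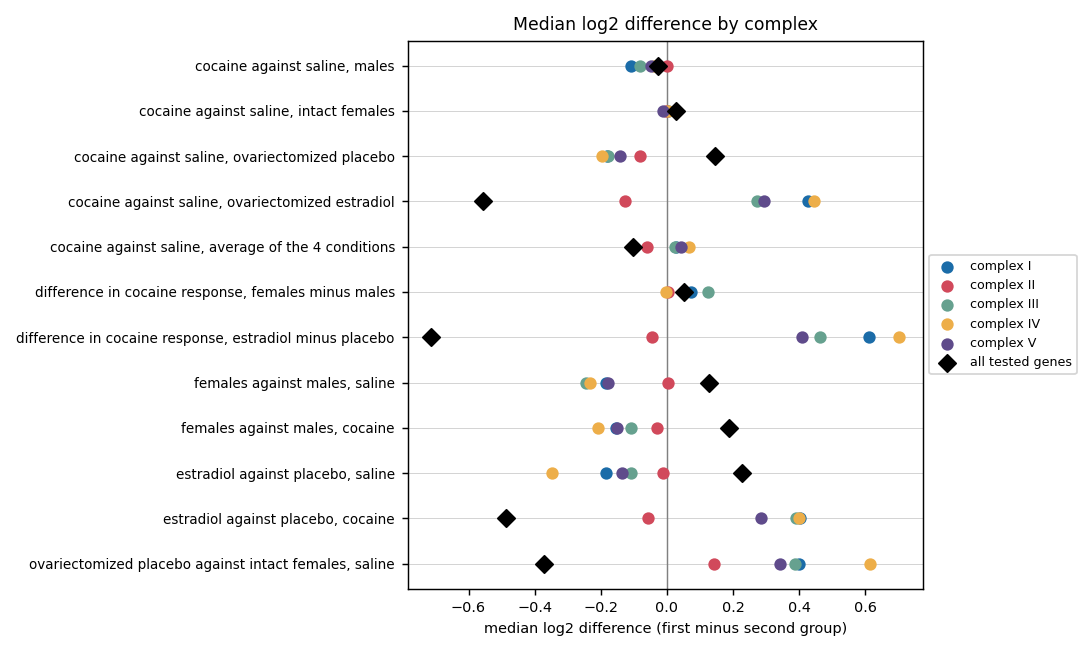
Median log2 difference of the tested subunits of each complex (coloured points) and of all 15196 tested genes (black diamonds) in the 12 comparisons, which share groups. In the cocaine, estradiol and interaction comparisons of ovariectomized estradiol mice and in ovariectomized against intact females complex II lies nearest to 0 of the 5, with 0.14 for it against 0.61 for complex IV in ovariectomized placebo against intact females.

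Estradiol was compared with placebo in ovariectomized mice, first without cocaine. In saline mice the median subunit differed by -0.20 and the median gene by 0.23, with complex medians of -0.18 for complex I, -0.01 for complex II, -0.11 for complex III, -0.35 for complex IV and -0.14 for complex V. None passed (limma, 0% of all genes, 1 subunit at an unadjusted p under 0.05). That 1 was Cox4i2, at 5.36, 10.5, 7.5, 6.48 and 10.2 TPM with estradiol and 10.9, 19.9, 12.2, 14.3 and 19.1 with placebo. Every estradiol mouse lay below every placebo mouse, although the nearest were 10.5 and 10.9. How many of all tested genes separate in this way is not given here, so the separation does not set Cox4i2 apart. The log2 difference in limma, not an exact test, was -0.89 (SE 0.30) (p = 0.00541, adjusted p = 0.737), and it was -0.80 without the 4 libraries and -0.78 with the ribosomal protein share as a covariate. As a log2 ratio over Cox4i1 in the same saline mice the groups overlapped, at -9.06 to -7.72 with estradiol and -8.03 to -7.19 with placebo. That ratio did not pass (exact permutation p = 0.0714, adjusted p = 0.798). In cocaine mice Cox4i2 was at 12, 14.5, 11.7, 8.05 and 9.65 TPM with placebo, which overlaps the values with estradiol given above. Over the 40 libraries Cox4i2 had a Pearson r of -0.38 with the summed vessel wall markers (rho -0.45). A permutation test of r over the 40 libraries gave p = 0.0155 (adjusted p = 0.0233 over 3 such relations). Both are shares of 1 total and the markers differ between the cohorts, which that test does not take into account. The relation is therefore given as a description. Without the 2 libraries farthest from the median marker level r was -0.52, in intact mice -0.40 and in ovariectomized mice -0.10.

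In cocaine mice, estradiol against placebo gave a median of 0.37 for the subunits and -0.49 for all genes. None passed (0% of all genes, 6 subunits at an unadjusted p under 0.05, beside 15.7% of all genes), and complex medians were 0.40 for complex I, -0.06 for complex II, 0.39 for complex III, 0.40 for complex IV and 0.29 for complex V. The smallest p above 0 was that of Ndufc1, a small accessory subunit of complex I, at 0.69 (SE 0.30), and below 0 that of Cox8b, at -1.55 (SE 0.75) (adjusted p = 0.244 for both). Cox8b was above 0 in only 24 of the 40 libraries, with a median of 1.14 TPM. Its difference therefore depends on zeros and on the added 0.5. With those 4 libraries left out the medians were 0.02 and 0.05.

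Ovariectomized placebo mice were compared with intact females, both on saline, and here most subunits were higher after surgery. Of 81 subunits 74 lay above 0, with a median of 0.40 beside -0.37 over all genes. None passed (limma, 0% of all genes). At an unadjusted p under 0.05 there were 23 subunits, all above 0, beside 19.3% of all genes. Complex medians were 0.40 for complex I, 0.14 for complex II, 0.39 for complex III, 0.61 for complex IV and 0.34 for complex V. Cox8a, a small subunit of complex IV, was at 2242, 1612, 1686, 1154 and 2668 TPM in ovariectomized mice and 1657, 1188, 995, 948 and 1202 in intact mice, a difference of 0.61 (SE 0.22) (adjusted p = 0.247). The groups overlapped, through 1 ovariectomized mouse at 1154 and 1 intact mouse at 1657. Cox6a1 differed by 0.68 (SE 0.25) and Ndufc2 by 0.79 (SE 0.29) with the same adjusted p. By role, the 29 accessory subunits of complex I stood at 0.51 and the 7 core subunits at 0.21, and the small and large subunits of complex III at 0.60 and 0.15. At an unadjusted p under 0.05 were 10 of 37 subunits of complex I, 1 of 4 of complex II, 0 of 8 of complex III, 9 of 17 of complex IV and 3 of 15 of complex V. Cox6c was at 2936, 4005, 2696, 2729 and 6458 TPM against 3318, 1606, 1637, 1642 and 1771, a difference of 0.89 (SE 0.34) (adjusted p = 0.247). Here 1 intact mouse, 64, lay within the ovariectomized range.

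This was the comparison in which most subunits stayed above 0 without the 4 libraries of low correlation (137 in these groups). There 75 of 81 did, with a median of 0.27 beside -0.19 for all genes. In that fit 27 subunits had an unadjusted p under 0.05. The share of all genes is not given for it, so this count does not set the subunits apart. The accessory and core subunits of complex I then stood at 0.32 and 0.13, and the small and large subunits of complex III at 0.39 and 0.15. With array weights 59 subunits passed, 57 higher and the long Sdha and Ndufs1 lower, beside 44.8% of all genes. With the ribosomal protein share as a covariate the median was 0.06, beside 0.04. That share was 13.2 ± 3.88% (SD, n = 5) in ovariectomized placebo saline mice and 9.05 ± 2.69% in intact saline females. Its part in the difference was not tested, and surgery, placebo and cohort cannot be told apart.

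Females and males were compared within each treatment. On saline the median subunit was at -0.19 and the median gene at 0.13, with complex medians of -0.18 for complex I, 0.00 for complex II, -0.25 for complex III, -0.23 for complex IV and -0.18 for complex V. None of the 81 passed (limma), beside 0.0329% of all genes, and 2 had an unadjusted p under 0.05. Cox6b2 was at 7.89, 3.64, 4.16, 9.97 and 8.36 TPM in females and 9.98, 7.97, 21.6, 9.55 and 12 in males, a difference of -0.81 (SE 0.31). Ndufa4l2 was at 1.56, 4.48, 7.59, 2.8 and 2.81 TPM in females and 8.68, 7.94, 3.09, 7.58 and 9.33 in males, a difference of -0.92 (SE 0.41) (adjusted p = 0.996 for both). Both pairs of groups overlapped. Neither group holds any of the 4 libraries, but leaving those out of the shared fit put 16 subunits at an unadjusted p under 0.05 (19.8%, beside 5.25% of all genes), with 0 passing.

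On cocaine the medians were -0.15 for the subunits and 0.19 for all genes, 0 subunits passed (0.0329% of all genes) and 0 had an unadjusted p under 0.05. The males here include the library labelled male cocaine 69, with Xist at 237 and Ddx3y at 0.318 TPM, as in females. The cocaine values of this paragraph therefore hold an apparent female among the males. Without it 0 subunits passed as well. Without male cocaine 67, 1 of the 4 libraries of low correlation, these medians were 0.03 and -0.06. Of the 3 X-linked subunits, Ndufa1 differed by -0.22 (SE 0.26) on saline and -0.41 (SE 0.26) on cocaine. Ndufb11 differed by -0.36 (SE 0.30) on saline and -0.20 (SE 0.30) on cocaine. Cox7b, also X-linked, differed by -0.06 (SE 0.29) and -0.32 (SE 0.29).

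As shares of TPM, complexes I, IV and V each took over 1% as a group mean in all 8 groups, complex III less than 1%, and complex II the least. Complex I took 1.65 ± 0.485% of TPM in male saline, 1.39 ± 0.266% in female saline, 2.0 ± 0.613% in placebo saline and 1.69 ± 0.261% in estradiol saline mice (SD, n = 5 each). In the matching cocaine groups it took 1.71 ± 0.896%, 1.36 ± 0.0852%, 1.72 ± 0.253% and 2.48 ± 1.08%. Complex II took between 0.115% and 0.123% as a group mean in all 8 groups. The widest SDs of complex I were those of the estradiol cocaine group, which holds 126 and 134, and of the male cocaine group, which holds 67.

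Isoform use was compared as a ratio of 2 genes within a library, by two-sided exact permutation tests over 5 against 5 mice. Such a ratio does not move with a library's scaling. It can still move with composition where its 2 genes differ in slope on the ribosomal protein share. Those slopes were -0.21 for Ndufa4l2 and 1.00 for Ndufa4, and 0.57 for Cox4i2 and 1.04 for Cox4i1. With all libraries they lay closer for Cox6a2 and Cox6a1, at 0.56 and 0.68. Without the 4 libraries of low correlation this order turned. The slopes were then 0.44 for Cox6a2 and 0.78 for Cox6a1, but 1.01 for Cox4i2 and 0.95 for Cox4i1. For Ndufa4l2 and Ndufa4 they were 0.00346 and 1.045. Without the 4 libraries of low correlation 0 ratios passed as well. There were 6 ratios in 8 comparisons, hence 48 tests, and the smallest p such a test can give is 0.00794. Of these 1 had p under 0.05 and 0 passed after Benjamini-Hochberg adjustment over the 48 (smallest adjusted p 0.798), and the groups overlapped in every one. The 1 was Cox6a2 over Cox6a1, the muscle against the widespread isoform of subunit 6a, in females against males on saline. The mean log2 ratio was -5.40 ± 0.42 in females and -6.01 ± 0.35 in males (SD, n = 5; exact permutation p = 0.0397). Over all 40 libraries the mean log2 ratio was -7.89 ± 0.57 for Cox4i2 over Cox4i1, -5.86 ± 0.45 for Cox6a2 over Cox6a1 and -6.42 ± 0.65 for Cox7a1 over Cox7a2 (SD). For the c subunit it was -1.17 ± 0.25 for Atp5g1 over Atp5g3 and -0.89 ± 0.25 for Atp5g2 over Atp5g3, and Ndufa4l2 over Ndufa4 was at -8.84 ± 0.97. Ndufa4l2 had a Pearson r of 0.41 with the summed vessel wall markers over 40 libraries (rho 0.44). The permutation test of r gave p = 0.00884 (adjusted p = 0.0233), with the same limits as for Cox4i2. Without the 2 farthest libraries r was 0.41, in intact mice 0.44 and in ovariectomized mice 0.17. Cox6a2, which is known from fast-spiking interneurons as well as muscle, had an r of 0.17 with parvalbumin interneuron markers (rho 0.09, permutation test of r, p = 0.29). That r was 0.05 without the 2 farthest libraries, -0.24 in intact mice and 0.44 in ovariectomized mice. Skeletal muscle markers were low, summing to 2.55 to 16.5 TPM over 6 genes.

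Neighbouring pathways were placed beside the subunits with the same fit. In the estradiol cocaine against saline comparison the 16 citrate cycle enzymes tested had a median of -0.72, the 16 glycolytic enzymes -0.48 and the 14 regulators of mitochondrial biogenesis -0.60, all near the median gene at -0.56. The 40 assembly factors of the complexes stood at -0.26, the 76 mitochondrial ribosomal proteins at 0.08, the 8 electron carriers and other subunits at 0.35 and the 82 cytosolic ribosomal proteins at 0.52, beside 0.41 for the 81 subunits. In ovariectomized placebo against intact females the same 7 medians were -0.26, -0.08, -0.57, 0.00, 0.21, 0.26 and 0.49. With all libraries, the median of the subunits lay nearer to that of the cytosolic ribosomal proteins than to that of the citrate cycle enzymes, the pathway to which complex II also belongs. In each of the 12 comparisons 0 genes of these 7 lists passed (limma). At an unadjusted p under 0.05 the estradiol comparison held 11 of 16 citrate cycle, 7 of 16 glycolytic, 7 of 14 biogenesis, 16 of 40 assembly, 18 of 76 mitochondrial ribosomal, 1 of 8 carrier and 34 of 82 cytosolic ribosomal genes, to be read against 41.7% of all genes. With the 4 libraries left out the 7 medians in that comparison, in the order citrate cycle, glycolysis, biogenesis, assembly, mitochondrial ribosome, carriers and cytosolic ribosome, were -0.11, 0.05, -0.13, -0.03, -0.02, -0.07 and 0.05, beside 0.03 for the subunits. In ovariectomized against intact females they were -0.13, -0.01, -0.31, -0.01, 0.11, 0.14 and 0.36, beside 0.27.

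Promoters of 66 subunits were found in the RefSeq table (GRCm38.p6), as 250 bases before to 50 after the gene start. They were searched on both strands for exact matches to NRF1 (GCGCATGCG), ETS (CCGGAAGT), YY1 (AAGATGGCG) and ERR (TCAAGGTCA) motifs, since these factor families are known for their sites in respiratory chain promoters. NRF1 was matched in 8 of 66 (12.1%, against 1.95% of the 27025 genes in the table, a gene counting in both shares where any of its windows matched), YY1 in 7 (10.6% against 1.64%), ETS in 5 (7.58% against 4.31%) and ERR in 2 (3.03% against 0.466%). Of these, 4 are shown, 1 for each motif, with matches in capitals. The capitals of Atp5k hold a pair of overlapping NRF1 matches, those of Cox8a a pair of ETS matches, those of Ndufa9 1 YY1 match and those of Sdhd 1 ERR match.
Atp5k (chr5:108434350-108434649, minus strand): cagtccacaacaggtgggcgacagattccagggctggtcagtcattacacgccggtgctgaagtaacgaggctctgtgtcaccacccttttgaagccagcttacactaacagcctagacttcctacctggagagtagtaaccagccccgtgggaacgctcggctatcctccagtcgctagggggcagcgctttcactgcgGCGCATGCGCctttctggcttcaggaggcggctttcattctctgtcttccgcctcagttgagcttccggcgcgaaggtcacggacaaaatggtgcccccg
Cox8a (chr19:7217567-7217866, minus strand): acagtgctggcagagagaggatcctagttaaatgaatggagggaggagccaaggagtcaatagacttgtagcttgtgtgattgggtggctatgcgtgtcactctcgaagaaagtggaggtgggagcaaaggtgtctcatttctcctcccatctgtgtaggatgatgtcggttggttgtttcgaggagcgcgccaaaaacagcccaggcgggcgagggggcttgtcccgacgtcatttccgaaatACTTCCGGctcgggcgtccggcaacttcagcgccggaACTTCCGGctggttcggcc
Ndufa9 (chr6:126849095-126849394, minus strand): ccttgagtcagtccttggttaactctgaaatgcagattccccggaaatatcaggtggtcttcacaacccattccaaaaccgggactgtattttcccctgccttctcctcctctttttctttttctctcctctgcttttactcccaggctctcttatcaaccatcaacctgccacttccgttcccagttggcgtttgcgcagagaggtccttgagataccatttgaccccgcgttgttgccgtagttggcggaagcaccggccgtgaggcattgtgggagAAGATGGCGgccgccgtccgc
Sdhd (chr9:50603800-50604099, minus strand): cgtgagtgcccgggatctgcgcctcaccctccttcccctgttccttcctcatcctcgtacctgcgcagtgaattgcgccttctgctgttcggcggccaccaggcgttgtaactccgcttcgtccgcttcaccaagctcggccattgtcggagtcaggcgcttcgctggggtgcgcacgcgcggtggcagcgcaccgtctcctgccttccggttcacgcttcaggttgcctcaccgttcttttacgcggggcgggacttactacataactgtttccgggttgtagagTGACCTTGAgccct
The slopes of these genes on the ribosomal protein share were 0.79 for Atp5k, 0.61 for Cox8a, -0.49 for Ndufa9 and 0.17 for Sdhd, but without the 4 libraries 0.85, 0.71, -0.0747 and 0.36. A match is a description of the sequence and not a measured site.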

How the data were processed

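Libraries were made with a targeted AmpliSeq kit from Trizol-extracted RNA of both hemispheres, per the labels' protocols. The deposited table holds 1 level per gene and library. Its name speaks of FPKM, but every column sums to 1000000, so the values the authors deposited are treated here as TPM. The submitters' processing notes name the aligners TopHat2 (2.0.9) and Bowtie2 (2.1.0.0), Cufflinks and Cuffdiff (both 2.2.0), limma, DESeq2 and the build mm10, without their roles. Of 23349 entries, 27 are dates in place of gene names and were dropped. Counts per library are unknown, so no interval for counting error is given, and shares of a library are relative to its total.

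Differences were tested with limma 3.58.1 in R 4.3.3 (moderated, empirical Bayes with trend and robust options) on log2(TPM + 0.5), in 1 fit over the 8 groups and 40 libraries, for the 15196 genes of at least 1 TPM in at least 5 libraries. Each fold change is on that scale and understates changes of low genes. The fit was tested on simulated data. P-values measure the spread between these libraries, 1 per mouse. Isoform ratios were compared with exact permutation tests. Relations of isoforms to markers were tested by permuting the 40 libraries, with 100000 resamples and without regard to group. Slopes are least squares fits over libraries. Groups follow the sample titles. Genes named are, per complex, those of highest and lowest level and of widest and narrowest spread, the Sdh genes, the isoform families and up to 3 of smallest p in each direction of a comparison; further subunits named for their level by role, for slope, length, X linkage or promoter were chosen after their values were seen. The members and lists were chosen with earlier results of these data known. Alternatives were other scalings, pseudocounts and filters, array weights, a ribosomal covariate and leaving out libraries.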

Additional observations from a re-analysis of the deposited data

Results flagged for a closer look

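Among 96 sets of 5 mice (12 measures in 8 groups), 18 held a highest or lowest mouse whose gap to its neighbour exceeded 0.71 of the range, the 95% critical value of Dixon's test. Chance flags about 1 in 20 such sets, and the shares of the complexes are not independent of each other.

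In the male cocaine group, mouse 67 stood above the other 4 in the share of TPM of all subunits (10.7%, next 4.5%), complex I (3.31%), complex III (1.18%), complex IV (3.24%) and complex V (2.88%). Its complex II share was the highest of the group as well, by a gap under the critical value. In the female saline group, mouse 64 stood above the others in all subunits (5.96%, next 4.31%), complex I (1.86%), complex III (0.634%), complex IV (1.63%) and complex V (1.71%). Complex II had 1 such mouse, male saline 61 at 0.127%. The causes were not tested.

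For ratios of isoforms, the log2 of Cox4i2 over Cox4i1 was lowest in male cocaine 67 (-8.98) and in ovariectomized estradiol saline 122 (-9.06). The log2 of Cox6a2 over Cox6a1 was lowest in the library labelled male cocaine 69 (-6.20) and in female cocaine 70 (-7.42), and highest in female saline 66 (-4.66). The log2 of Cox7a1 over Cox7a2 was lowest in male cocaine 68 (-7.38), and that of Ndufa4l2 over Ndufa4 in female cocaine 70 (-8.98).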

How the results depend on the processing

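No paired analysis was possible because the animal numbers do not repeat between groups. The limits are the unknown depth, 5 mice a group, 4 libraries that stand apart in 3 of the 8 groups, and scaling to a fixed total, which ties a level to all other genes.

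The median of the subunits less that of all genes and the range of the 5 complex medians moved by more than the spread between mice (pooled SD 0.681 and 0.273) in these comparisons. With quantile normalization, for cocaine with estradiol the median less all genes was 0.28 (from 0.96) and the range was 0.29 (from 0.57) and for the estradiol interaction the median less all genes was 0.39 (from 1.29) and the range was 0.35 (from 0.75). With the ribosomal protein share as a covariate, for cocaine with estradiol the median less all genes was 0.051 (from 0.96) and the range was 0.19 (from 0.57), for the estradiol interaction the median less all genes was 0.018 (from 1.29) and the range was 0.17 (from 0.75), for estradiol on saline the range was 0.051 (from 0.34), for estradiol on cocaine the median less all genes was 0.047 (from 0.86) and the range was 0.11 (from 0.46) and for ovariectomy the median less all genes was 0.021 (from 0.77) and the range was 0.17 (from 0.47). Without the 4 libraries of low correlation, for cocaine with estradiol the median less all genes was 0.069 (from 0.96) and the range was 0.15 (from 0.57), for the estradiol interaction the median less all genes was 0.076 (from 1.29) and the range was 0.15 (from 0.75) and for estradiol on cocaine the median less all genes was -0.038 (from 0.86) and the range was 0.038 (from 0.46). With array weights, for cocaine with estradiol the median less all genes was 0.16 (from 0.96) and the range was 0.064 (from 0.57), for the estradiol interaction the median less all genes was 0.17 (from 1.29) and the range was 0.12 (from 0.75) and for estradiol on cocaine the median less all genes was -0.085 (from 0.86) and the range was 0.056 (from 0.46). For the estradiol interaction, leaving out 1 library at a time gave a range of the complex medians of 0.46 to 0.90 (from 0.75), and it was 0.46 without estradiol cocaine 126. For estradiol on cocaine, leaving out 1 library at a time gave a range of the complex medians of 0.18 to 0.59 (from 0.46), and it was 0.18 without estradiol cocaine 126.

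The count of subunits past the threshold was 0 under the main settings everywhere. Leaving out 1 library at a time gave 0 to 23 for cocaine with estradiol (9, 23 and 22 without estradiol cocaine 128, 136 or 140) and 0 to 29 for any difference among the 8 groups, the latter without male cocaine 67. Array weights gave 59 for ovariectomy and 57 for any difference among the groups, and leaving out the 4 libraries gave 1 for the latter. In the other combinations run it stayed at 0.

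Single subunits changed sign as follows, all between values not past the threshold in the main fit (log2 differences). Without the 4 libraries of low correlation, Cox7b -0.035 for cocaine in males, Sdha -0.024 for cocaine with placebo, Cox6c -0.021 for cocaine on average, Ndufs1 -0.14 and Sdha -0.13 for sex on cocaine, Sdha 0.058 and Atp5a1 0.088 for estradiol on cocaine. Without male cocaine 67, Cox7b -0.035 for cocaine in males, Ndufs1 -0.14 and Sdha -0.13 for sex on cocaine. With each library centred on its median log2 level, Ndufv1 -0.082 for cocaine with placebo, Ndufa9 0.064 for cocaine with estradiol, Ndufs3 0.011 for cocaine on average, Ndufa9 0.19 for the estradiol interaction, Cox6b2 -0.013, Ndufs1 -0.023 and Sdha -0.018 for sex on cocaine, Ndufa9 -0.052 for estradiol on saline, Atp5a1 0.078 for estradiol on cocaine, Ndufa4l2 0.090 for ovariectomy. With array weights, Sdha -0.027 and Ndufv1 -0.0060 for cocaine with placebo, Ndufa9 0.0062 for the estradiol interaction, Ndufs1 -0.23 and Sdha -0.22 for sex on cocaine, Ndufc1 -0.029, Ndufb11 -0.030, Ndufa6 -0.071, Sdha 0.073 and Atp5a1 0.023 for estradiol on cocaine. Without ovariectomized placebo saline 137, Sdha -0.024 for cocaine with placebo. With the ribosomal protein share as a covariate, Sdha -0.092 for sex on saline, Ndufs1 -0.10 and Sdha -0.12 for sex on cocaine, Sdha 0.018 and Ndufs1 0.071 for ovariectomy. With quantile normalization, Cox6b2 -0.018 for sex on cocaine, Ndufa4l2 0.017 for ovariectomy. Leaving out 1 library at a time gave -0.035 to 0.46 for Cox7b in cocaine in males, -0.024 to 0.40 for Sdha in cocaine with placebo, -0.14 to 0.30 for Ndufs1 in sex on cocaine and -0.13 to 0.29 for Sdha in sex on cocaine. Centring shifts all genes of a comparison by 1 constant, so its sign changes say nothing of single subunits. The cause of these changes was not tested. Of the values for single named subunits 1764 kept direction and side of the threshold, 22 crossed it and 38 changed sign.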
